A study of Mus musculus with 8 samples.

Results

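Tnrc6c (ENSMUSG00000025571, chromosome 11, + strand) encodes one of the TNRC6 proteins, the scaffolds of microRNA silencing. It was chosen by a measured value: 1 of its peaks holds the highest fold enrichment in the list of N6-methyladenosine (m6A) peaks of wild type RO cells. It is 1 of 53465 genes in the count table and 1 of 5800 genes with a peak in that list. Its paralogues Tnrc6a (ENSMUSG00000052707, chromosome 7) and Tnrc6b (ENSMUSG00000047888, chromosome 15) are listed too and are given alongside.

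MeRIP-seq sequences RNA pieces enriched by an m6A antibody beside the unselected fragments, called input. Spermatogenic cells came from the testes of C57BL/6 mice aged 12 weeks, either wild type (WT) or Alkbh5-/- (KO), which lack a demethylase that removes the mark. The cell fractions are labelled PA and RO. The title of the series speaks of pachytene spermatocytes, which are meiotic cells, and of round spermatids, the haploid cells after meiosis. Each combination of genotype and fraction had 1 input and 1 immunoprecipitated library, 8 samples in all, so no value below has a replicate check and no test was made. How the fractions were separated and how many mice were pooled is not given in the sources used here.

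In animals a microRNA guides an Argonaute protein to sites in a messenger RNA. A TNRC6 protein binds the Argonaute through glycine and tryptophan pairs in its amino-terminal part and, with its carboxy-terminal part, recruits poly(A)-binding protein and the CCR4-NOT and PAN2-PAN3 deadenylases, which shorten the tail and silence the message. m6A is deposited mostly in long internal exons and near stop codons. No genome of these coordinates was given, so the bases under the peaks are not printed.

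The input libraries held between 9921365 and 13147239 counts. Gene symbols came from the peak lists alone, so that markers without a peak were not analysed here. Of 9 pachytene markers 3 had a symbol (Sycp1, Sycp2 and Pou5f2), and their summed level was 2148 CPM (the count relative to the scaled library total) in WT PA, 1892 in WT RO, 1375 in KO RO and 1171 in KO PA. Of 10 spermatid markers 6 had one (Acrv1, Acr, Prm2, Tnp2, Odf1 and Akap4), with 246 CPM in WT PA, 463 in WT RO, 532 in KO PA and 983 in KO RO. Each of the 6 spermatid markers was higher in RO than in PA within each genotype. Their sum was higher in KO PA than in WT RO, through Prm2, Tnp2, Odf1 and Akap4, whereas Acrv1 (51.2 and 136 CPM) and Acr (31.3 and 73.3) were lower there. The pachytene sum rested on Sycp2, with 1779 CPM in WT PA, 1516 in WT RO, 824 in KO PA and 931 in KO RO, while Sycp1 lay between 338 and 435 and was no higher in PA than in RO in either genotype. Leydig cell markers (2 of 5 with a symbol) summed to 136 CPM in WT PA and to between 16.7 and 41.5 in the other libraries. Summed levels over the 4 libraries ran from 23.4 to 60.3 CPM for spermatogonium (3 of 5 markers), from 78.9 to 151 for Sertoli cell (3 of 5) and from 173 to 334 for peritubular and endothelial markers (3 of 4), and the macrophage marker Csf1r (1 of 3) from 2.13 to 21.6. Genes with a peak in the KO PA list alone had their highest median level in KO RO, ahead of KO PA (0.09 and 0.05 above the mean of the gene on the log2 scale), while each of the other 3 lists had its maximum in its own library.

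Tnrc6c carried peaks in all 4 lists: 5 in WT PA, 5 in WT RO, 4 in KO PA and 4 in KO RO, 18 in all. All lay inside the RefSeq gene (mm10, the build named in the submitters' processing notes, chromosome 11, 117653703 to 117763439). Among genes with at least 100 CPM in every input library, 50.5% (731 of 1448) had a peak in all 4 lists, so the presence of a peak in each list is common at this depth. The amount of sequence under peaks was less common. Tnrc6c peaks covered 3148 exonic bases in WT PA, 3358 in WT RO, 3057 in KO PA and 3088 in KO RO, against medians over listed genes between 297 and 331. At least as much was covered in 0.51% of the listed genes in WT PA, 0.621% in WT RO, 0.904% in KO PA and 0.663% in KO RO. These shares are over listed genes of any depth. Tnrc6b covered from 1321 (WT RO) to 2281 bases (KO PA), with shares from 1.88% (KO RO) to 4.84% (WT RO). For Tnrc6a the coverage ran from 481 (WT RO) to 1832 bases (KO PA), with shares from 27.9% to 3.39%.

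Most of the sequence under Tnrc6c peaks was in 1 block. Peaks that crossed a splice junction broke at the same bases in different lists, at 117714452 to 117720950 in WT PA, KO PA and KO RO and at 117723550 to 117732168 in all 4 lists. The 2601 bases from 117720950 to 117723550 between these junctions therefore form an uninterrupted exonic block. Peaks covered 2363 of these bases in WT PA, 2471 in WT RO, 2362 in KO PA and 2393 in KO RO, and 2054 of its bases were covered in every list. Of the peak bases of the gene it held 73.6% in WT RO, the lowest share, and 77.5% in KO RO, the highest. The paralogues had a like cluster. In Tnrc6a, 11 of 12 peaks lay within 2608 bases (123169540 to 123172147), and in Tnrc6b 10 of 14 lay within 2009 bases (80879105 to 80881113).

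The lists divided this block differently. In KO PA it held a peak of 1228 exonic bases from 117714404 to 117722128 with a fold of 102, and a second from 117722368 to 117732212 with a fold of 54.2. In KO RO the corresponding peaks had folds of 48.6 (117714404 to 117722039) and 66.9 (117722248 to 117732242). In WT PA the block was split into 3, with folds of 69.2 (117714434 to 117721859), 2.81 (117721949 to 117722128) and 27.1 (117722278 to 117732212). The uncovered stretch near the middle of the block was 239 bases in KO PA and 208 in KO RO, and 149 and 89 on either side of the small peak in WT PA.

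WT RO was the list without this interruption. A single peak of 2066 bases ran from 117721021 to 117723086 over the bases left out in the other 3 lists, and a second went on from 117723146 to 117732272 (fold 42.8). The first had the fold for which the gene was chosen, 1290 in the authors' deposited table. The next folds in that list were 977 for Ttc4 and 822 for Tiparp, and 5 of its 9418 peaks reached 500, a value reached by no peak of the other 3 lists, whose highest folds lay between 396 and 475. Only WT RO had no peak on the 49-base block ending at 117714452 or on the first 71 bases of the long block. The peak was also the 6th longest of its list, in which 6 peaks covered at least 2000 exonic bases with a median fold of 38.3, against 15.1 over all peaks. These folds chose the gene and are given as a description. The fold is the authors' ratio of the immunoprecipitated over the input library of the same cells and depends on their depth, so the highest folds of the lists are set side by side only as listed.

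**Figure D1:**
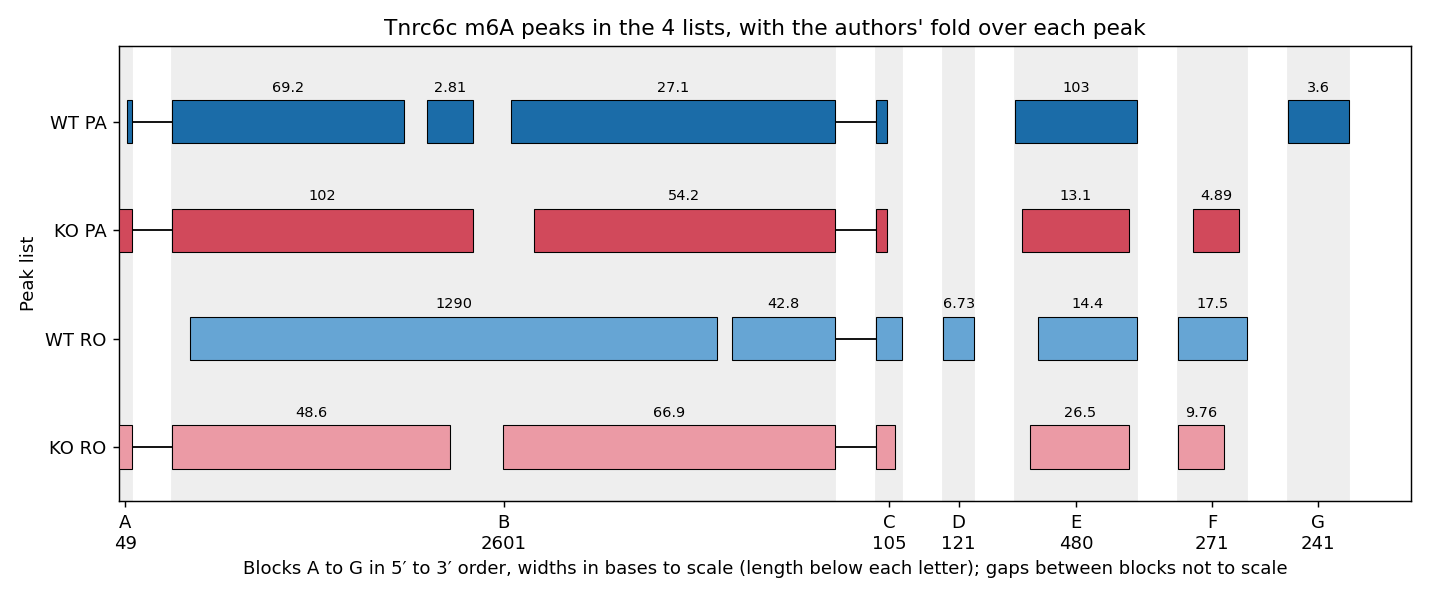
Tnrc6c peaks of each list (rows) over the 7 exonic blocks they touch, in 5′ to 3′ order with widths in bases to scale; a line joins the blocks of 1 peak and the number above is the fold. The 2601-base block B is covered in every row, in 3 pieces in WT PA and 2 in the others, and blocks C and E are the others with a peak in all 4 rows.

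In both PA lists the Tnrc6c peak with the highest fold was not the one with the smallest p-value, whereas in both RO lists it was. The 1290-fold peak ranked first by fold in WT RO and 42nd by p-value, with a log10 p of −811, and the 41 peaks with smaller p-values had folds from 2.83 to 470. In WT PA the highest Tnrc6c fold, 103, belonged to a peak toward the 3′ end of the gene with a log10 p of −30, whereas the peak with a fold of 27.1 on the long block had −1100 and ranked 41st of 7502 by p-value. In KO PA the smallest p-value belonged to the 54.2-fold peak (log10 p −287, 120th of 9931), and in KO RO to the 66.9-fold peak (−542, 149th of 8846). In all 4 lists, then, the Tnrc6c peak with the smallest p-value lay on the long block, while the peak with the highest fold did so in KO PA, WT RO and KO RO. The highest Tnrc6c fold ranked 148th in WT PA, 184th in KO PA and 457th in KO RO.

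**Figure D2:**
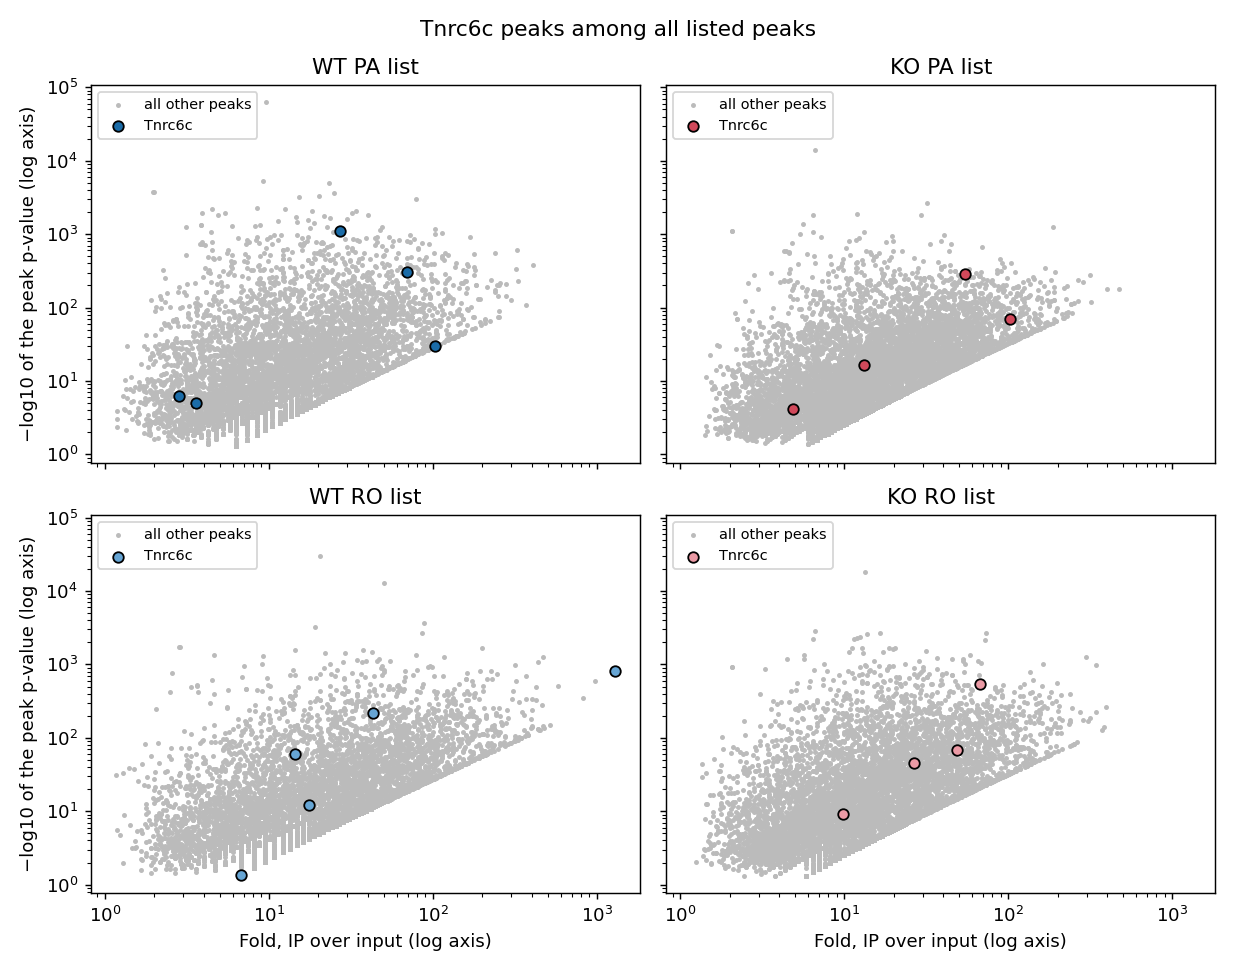
Each point is a listed peak, with its fold (horizontal, log axis) and −log10 of its p-value (vertical, log axis), in 1 panel per list; Tnrc6c peaks are large and coloured. The WT RO peak with a fold of 1290 stands at the right edge of its panel, and the 103-fold peak of WT PA has a log10 p of −30; peaks with a log10 p listed as minus infinity (2 in WT PA, 15 in KO PA, 40 in KO RO) are not drawn.

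Toward the 3′ end a peak of between 390 and 480 bases recurred in all 4 lists. The bases from 117760745 to 117761104 were common to them, and the union of the 4 peaks ended 2305 bases before the RefSeq end of the gene. Its fold was 103 in WT PA, 14.4 in WT RO, 13.1 in KO PA and 26.5 in KO RO. A further peak within 117761912 to 117762182 was listed in KO PA (fold 4.89), WT RO (17.5) and KO RO (9.76). WT PA had none there and instead a peak from 117762451 to 117762691 with a fold of 3.60, 748 bases before the end of the gene. The weakest entry was a peak of 121 bases in WT RO (117751237 to 117751357, fold 6.73, p-value 0.043), whose false discovery rate of 0.818 made it the 1 Tnrc6c peak of 18 above 0.05.

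The authors' annotation classed all 18 Tnrc6c peaks as exon, a class it keeps apart from coding sequence and untranslated regions. Among all peaks of protein-coding genes this class made up 9.98% in WT PA, 9.71% in WT RO, 9.86% in KO RO and a like share, 891 of 8905, in KO PA. Among genes with 4 or more peaks in a list, between 6 and 7 had peaks of this class alone (1.95% to 2.24%). All 12 Tnrc6a peaks were classed as coding sequence, and of 14 Tnrc6b peaks 10 were coding, 2 were in the 3′ untranslated region and 2 were exon. The class follows the annotation, which is not named in the sources used here, and does not show that the Tnrc6c peaks lie outside coding sequence.

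Sharing between lists was counted where exonic blocks overlapped by at least 1 base on the same strand. Between genotypes, 4 of 5 Tnrc6c peaks in WT PA had a counterpart in KO PA and 3 of 4 in the reverse direction, and 4 of 5 in WT RO had one in KO RO and 4 of 4 in reverse. Between fractions, 4 of 5 in WT PA had one in WT RO and 3 of 5 in reverse, and all 4 KO PA and 4 KO RO peaks overlapped each other. Near the 3′ end, the KO PA and WT RO peaks in 117761912 to 117762182 had no counterpart in WT PA. The WT PA peak from 117762451 to 117762691 had none in KO PA or WT RO. The weak WT RO peak described above had none in WT PA or KO RO. Where the overlap had to reach 50% of both peaks, 3 were shared between the genotypes in PA and 4 between the fractions in KO. Between the genotypes in RO 2 were shared and between the fractions in WT 1, and the 1290-fold peak had no counterpart in KO RO.

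In bases, the sequence under Tnrc6c peaks in both lists was 80.0% of that under either for the genotypes in PA, 80.7% for the genotypes in RO, 69.5% for the fractions in WT, and 88.1% for the fractions in KO. The medians over all genes with a peak in both lists were 59.4%, 47.7%, 48.8% and 68.0%, and 79.7%, 89.6%, 77.9% and 84.7% of these genes had a lower value than Tnrc6c. Tnrc6b had 81.6%, 54.9%, 63.1% and 88.4% in the same order of comparisons. Tnrc6a had the lowest of the 3 in each, at 42.3%, 28.7%, 16.7% and 30.6%. The Tnrc6a peaks differed in number as well, 4 in each PA list and 2 in each RO list, whereas Tnrc6b had 4, 3, 3 and 4 in WT PA, KO PA, WT RO and KO RO.

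The highest fold within Tnrc6a was 45.3 in WT PA, 26.9 in WT RO, 25.2 in KO PA and 45.3 in KO RO. In WT PA and KO RO these were different peaks, at 123169540 to 123169870 and 123170949 to 123171278. For Tnrc6b it was 40.1 in WT PA, 47.1 in WT RO, 69.2 in KO PA and 69.3 in KO RO, on the coding cluster each time. A Tnrc6b peak within 80929307 to 80929727 was in all 4 lists with folds from 10.9 to 21.1, classed as exon in both WT lists and as 3′ untranslated region in both KO lists.

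Input counts were then followed over genotype and fraction. Tnrc6c had 5374 counts in WT PA, 4530 in WT RO, 3672 in KO PA and 3236 in KO RO. The scaled levels were 459 CPM in WT PA (exact Poisson 95% interval 447 to 471, counting error only), 393 in WT RO (382 to 405), 339 in KO PA (328 to 350.0) and 296 in KO RO (286 to 306). Both KO libraries thus lay below both WT libraries, which held for 20.7% of the 27369 genes with at least 1 CPM in any library, and no interval overlapped its neighbour. This order, WT PA, WT RO, KO PA, KO RO, was the reverse of that of the summed spermatid markers and of Csf1r, which had 25 counts in WT PA. The spermatid markers Acrv1 and Acr did not follow the reverse order. The Leydig sum had the same order as Tnrc6c, though WT RO and KO PA were close (41.5 and 40.0 CPM). Its marker Hsd3b1 had that order as well, whereas its other marker, Cyp11a1, was higher in KO PA (20.9) than in WT RO (15.7). The pachytene, spermatogonium, Sertoli and peritubular sums had neither order. The part of any of these cells in the Tnrc6c order was not tested. In bulk libraries fewer cells of a type and less RNA per cell cannot be told apart.

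The log2 ratio of KO over WT for Tnrc6c was −0.44 in PA (exact binomial 95% interval −0.50 to −0.38, counting error only) and −0.41 in RO (−0.47 to −0.34), a level 1.35-fold and 1.33-fold lower in KO. These 2 ratios share no library. They depend on the scaling: with total counts in place of the scaling factors they were −0.14 and −0.23, and the log2 level of KO PA, 8.53, was then close to that of WT RO, 8.55. Neither reached 2-fold either way, which 43.7% of 24331 genes in PA and 42.0% of 24763 in RO did. Genes with a summed count within a factor of 2 of that of Tnrc6c had a median of −0.37 in PA (quartiles −0.81 and 0.02, 779 genes) and −0.27 in RO (−0.69 and 0.06, 947 genes). In PA 45.7% and in RO 39.4% of them lay below Tnrc6c, so that its genotype ratio was near the middle of genes counted as deeply. Past 2-fold either way were 16.4% of them in PA and 14.7% in RO. The RO over PA ratio was −0.22 in WT (−0.28 to −0.17) and −0.20 in KO (−0.26 to −0.13), against 40.2% and 32.7% of tested genes past 2-fold. Of genes with like counts 31.9% in WT and 19.6% in KO lay lower, and 4.15% in WT and 0.63% in KO were past 2-fold.

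Between genotypes the paralogues did not follow Tnrc6c. Tnrc6b had 1751 counts in WT PA, 1302 in WT RO, 2536 in KO PA and 2364 in KO RO, or 149, 113, 234 and 216 CPM in the same order. Both KO libraries lay above both WT libraries, as they did for 22.3% of genes. Its log2 ratio of KO over WT reached 0.65 in PA (0.56 to 0.74) and 0.94 in RO (0.84 to 1.04), and 94.4% and 96.6% of genes with like counts lay lower. By total counts these values were 0.94 and 1.11, the latter past 2-fold. Tnrc6a had 2542, 2590, 1568 and 2002 counts in WT PA, KO PA, WT RO and KO RO, or 217, 239, 136 and 183 CPM. For KO over WT its ratio stood at 0.14 in PA (0.06 to 0.22) and at 0.43 in RO (0.33 to 0.53), or 0.43 and 0.60 by total counts, and its RO over PA ratio −0.67 in WT and −0.38 in KO. The WT and KO libraries of Tnrc6a overlapped in level, though by total counts both KO libraries lay above both WT libraries, and both RO libraries lay below both PA libraries, as for 14.6% of genes. Tnrc6b also was lower in RO than in PA, with log2 ratios of −0.40 in WT and −0.11 in KO.

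The makeup of the family does not depend on the scaling between libraries. Tnrc6c took 55.6% of the summed counts of the 3 genes in WT PA (Wilson 95% interval 54.6% to 56.6%), 61.2% in WT RO (60.1% to 62.3%), 41.7% in KO PA (40.7% to 42.8%) and 42.6% in KO RO (41.5% to 43.7%). Its share was lower in both KO than in both WT libraries. Tnrc6b took 18.1% in WT PA, 17.6% in WT RO, 28.8% in KO PA and 31.1% in KO RO, and Tnrc6a between 21.2% (WT RO) and 29.4% (KO PA). The log2 ratio of KO over WT was 1.08 lower for Tnrc6c than for Tnrc6b in PA and 1.34 lower in RO. These are shares of counts, not of molecules, since the counts were not divided by transcript length.

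**Figure D3:**
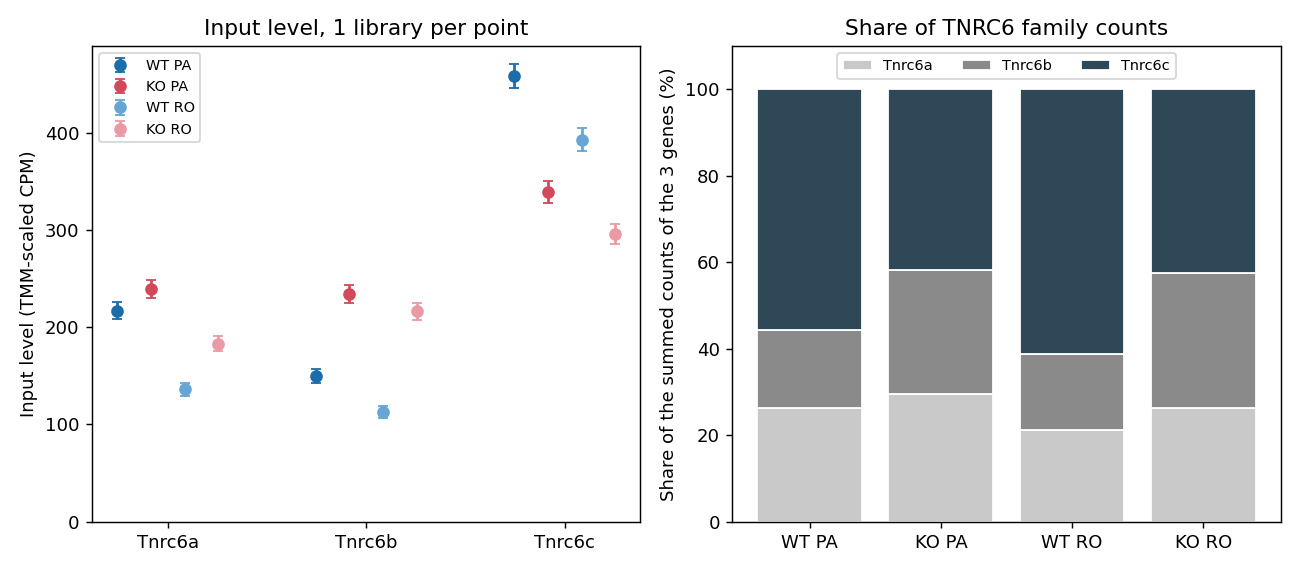
Left, input level of each TNRC6 gene in CPM, 1 point per library with its exact Poisson 95% interval; right, the share of each gene in the summed counts of the 3 genes. Tnrc6c lies at 459 and 393 CPM in the WT and at 339 and 296 in the KO libraries, while the Tnrc6b points of KO, at 234 and 216, are above those of WT; levels of different genes are not corrected for length.

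Genes were ranked by how closely their log2 level, centred on its mean over the 4 input libraries, followed that of Tnrc6c, among 7052 other genes with a symbol and at least 10 CPM in some library. The nearest was Asxl1, a Polycomb-associated chromatin protein, at a Euclidean distance of 0.016 on the log2 scale, with 2587, 1742, 2164 and 1539 counts in WT PA, KO PA, WT RO and KO RO. Next came Glyr1, a nucleosome-binding protein (0.038), Chd8, a chromatin remodeller (0.039), Pde3b, a phosphodiesterase (0.042), and Ftsj3, a ribosome biogenesis factor (0.043). The median distance was 0.85, and Tnrc6a stood at 0.79 and Tnrc6b at 1.22. With 4 libraries the likeness rests on 4 values, of which the centring leaves 3 free. Asxl1 had 5 peaks in WT PA and 4 in each other list, with a highest fold per list from 11.8 (WT PA) to 47.1 (WT RO). In WT PA, KO PA, WT RO and KO RO, Glyr1 had 2, 3, 1 and 3 peaks. Chd8 had 4, 5, 2 and 2, Pde3b 1, 1, 3 and 3, and Ftsj3 1 in each.

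The other genes of microRNA silencing were taken from lists of Argonautes, microRNA processing factors, deadenylases, decapping and repression factors, poly(A)-binding proteins and regulators, 52 genes of which 29 had a symbol. Since only genes with a peak have one, these 29 are not a full sample of the pathway. Peaks were listed for 17 of them in WT PA, 18 in WT RO, 25 in KO PA and 18 in KO RO, and for 9 in all 4. Of all genes with at least 1 CPM, 21.4%, 26.0%, 26.9% and 24.1% had a peak in these lists, a share that the choice by symbol does not allow to be set against the 29. In PA 1 of the 29 was at least 2-fold higher and 3 were at least 2-fold lower in KO, against 23.8% and 19.9% of all genes tested, and in RO 0 and 2, against 23.1% and 18.9%. The directions in PA depended on the scaling. By total counts Trim71 (log2 ratio 2.06) and Ythdf2 (1.02) were at least 2-fold higher there and Ago4 (−1.07) lower. Pan2 (−0.79) and Lsm14b (−0.95) then fell short. The median log2 ratio was −0.39 in PA and −0.03 in RO, against −0.05 in both for all tested genes with a symbol. Both KO libraries lay below both WT libraries for 11 of the 29 and above for 5, against 20.7% and 22.3% of all genes, and by total counts for 8 and 8. These backgrounds take in genes of every depth, and the 29 were not set against genes of like counts. Genes with counts like those of Tnrc6a had median KO over WT ratios of −0.25 in PA and −0.18 in RO. Of them 15.5% and 14.4% were past 2-fold either way. Between fractions 1 was higher and 1 lower by 2-fold in RO in WT (21.5% and 18.7% of all genes), and none in KO (17.5% and 15.1%).

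Of the Argonautes, the proteins TNRC6 binds, Ago2 and Ago4 had a symbol. Ago2, the one that can cleave its target, had 2012 counts in WT PA, 2076 in WT RO, 1812 in KO PA and 1360 in KO RO, with log2 ratios of KO over WT of −0.04 (−0.13 to 0.05, an interval that includes 0, and 0.25 by total counts) and −0.53. It had no peak in WT PA and 1 in each other list, with folds of 21.5 in WT RO, 4.44 in KO PA and 2.98 in KO RO. Ago4, which has been tied to meiotic silencing in male germ cells, had 862, 801, 308 and 484 counts in the same order of libraries. Both its KO libraries were below both WT libraries, at log2 ratios of −1.37 in PA and −0.65 in RO, and its highest folds were 22.1, 38.4, 29.6 and 16.3 in WT PA, KO PA, WT RO and KO RO.

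Of the processing factors, Drosha and Dgcr8, which cut the primary transcript in the nucleus, had KO over WT log2 ratios of −0.42 and −0.54 in PA and of 0.33 and 0.18 in RO. Dicer1, which cuts the precursor in the cytoplasm, had −0.19 and 0.51, and the exporter Xpo5 −0.80 and −0.19. By total counts the PA ratio of Dicer1 was 0.10. All 4 had a positive RO over PA ratio in KO, with a median of 0.19, and a negative one in WT, with a median of −0.47, against 50.6% and 50.2% of all tested genes above 0. The KO intervals of Dicer1 (−0.05 to 0.19) and Xpo5 (−0.03 to 0.32) include 0. Peak numbers of Drosha were 1 in WT PA, 0 in WT RO, 4 in KO PA and 2 in KO RO, and those of Dicer1 1, 0, 3 and 1 in the same order. Dgcr8 had 1, 1, 2 and 1, and Xpo5 0, 0, 0 and 1. Drosha, Dgcr8 and Dicer1 thus had their highest number in KO PA, which is also the longest list, with 9931 peaks against 7502 in WT PA.

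Of the deadenylase genes with a symbol, effectors that TNRC6 recruits, Pan3, the adaptor of the PAN2 nuclease, had the highest fold. It was 234 in WT RO, with 41.8 in WT PA, 99.3 in KO PA and 33.8 in KO RO. The counts of Pan3 ran from 2192 in WT RO to 2494 in WT PA. The ratios of KO over WT for Pan3 were 0.04 in PA (−0.04 to 0.12) and 0.16 in RO (0.08 to 0.25), or 0.33 and 0.34 by total counts. Pan2, the nuclease itself, had 1863 counts in WT PA, 1549 in WT RO, 810 in KO PA and 681 in KO RO, with ratios of −1.09 in PA and −1.11 in RO, the 1 gene of the 29 at least 2-fold lower in both. By total counts the ratios of Pan2 were −0.79 and −0.93, short of 2-fold in PA and in RO. Cnot2, a subunit of the CCR4-NOT core, had a peak in all 4 lists with folds from 8.90 to 20.7 and ratios of −0.23 and −0.03, or 0.06 and 0.14 by total counts. Cnot6l, one of its deadenylases, had ratios of 0.46 and 0.71 and a single peak, in KO RO, with a fold of 7.57.

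Downstream of deadenylation, Ddx6, a helicase of P-bodies, had peaks in all 4 lists with highest folds of 75.9 in WT PA, 147 in WT RO, 31.8 in KO PA and 30.9 in KO RO. Its ratios of KO over WT were 0.57 and 0.54. Gigyf1, a partner of the cap-binding repressor Eif4e2, had 2877 counts in WT PA, 2836 in WT RO, 1445 in KO PA and 1432 in KO RO, at ratios of −0.88 and −0.91. Eif4enif1, which links the cap-binding protein to Ddx6, had −0.16 and 0.16, or 0.13 and 0.33 by total counts. Lsm14b, an RNA-granule protein, had −1.24 and −0.62, and the decapping cofactor Dcp1b −0.73 and −1.24.

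Of the 6 poly(A)-binding genes of the lists 3 had a symbol, so that Pabpc1 and Pabpc4, among others, were not analysed here. The 3 were Pabpc2, Pabpc6 and the regulator Paip2. All had both KO libraries below both WT libraries, as did 20.7% of all genes. By total counts this held for Pabpc2 alone. Their ratios were −0.52 and −0.57 for Pabpc2, −0.39 and −0.67 for Pabpc6, and −0.44 and −0.07 for Paip2, where the latter interval, −0.18 to 0.05, includes 0 and the value by total counts was 0.11. Pabpc6 had 2 peaks in each PA list, 5 in WT RO with a highest fold of 29.7 and 1 in KO RO. Among regulators, Ythdf2, a reader of m6A that brings CCR4-NOT to marked messages, had peaks in all 4 lists with highest folds of 48.5 in WT PA, 112 in WT RO, 152 in KO PA and 97.3 in KO RO. Limd1, a LIM protein that binds TNRC6 and Argonautes, had 1 peak in each list and ratios of −0.31 and −0.29. Trim71, a ubiquitin ligase and repressor, had 57 counts in WT PA and 185, 205 and 156 in KO PA, WT RO and KO RO, and Ajuba, another LIM protein, between 60 and 159 in the 4 libraries.

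**Figure D4:**
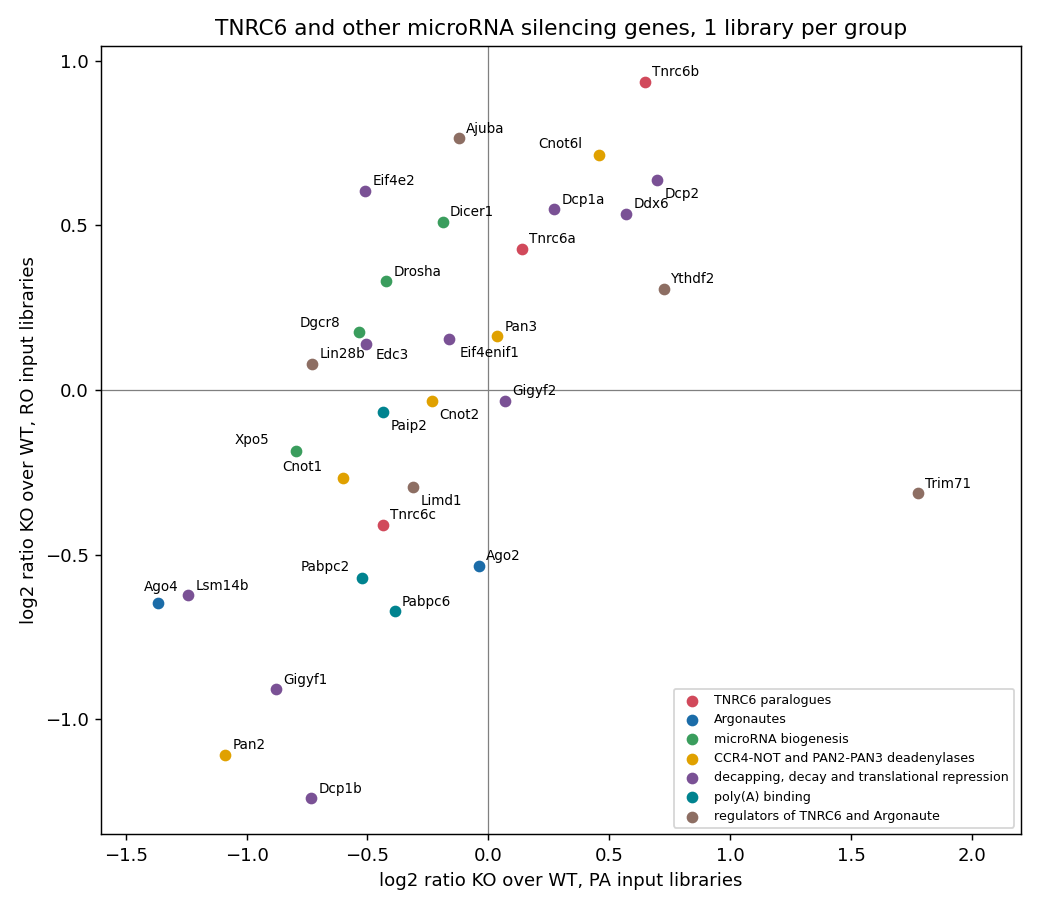
Log2 ratio of KO over WT in PA (horizontal) and in RO (vertical) for the 3 TNRC6 genes and the 29 other silencing genes with a symbol, coloured by list, with 1 library per group. Tnrc6c lies at −0.44 and −0.41 in the lower left, Tnrc6b at 0.65 and 0.94 in the upper right, and Pan2 at −1.09 and −1.11.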

How the data were processed

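The authors deposited whole-number counts per Ensembl gene for the 4 input libraries, which are not normalized, and 4 peak lists. A listed peak has, per the file headers, exon blocks, a p-value, a false discovery rate, a fold (the ratio of immunoprecipitated over input) and a feature class. Per the submitters' processing notes cutadapt 2.5, HISAT2 2.1.0, HOMER 4.10.4 and mm10 were used; which tool made which file, the strand setting and the annotation are not given in the sources used here, so reads of overlapping genes cannot be separated.

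Counts were scaled with TMM factors over genes with at least 1 CPM in any library (edgeR 4.0.16, R 4.3.3): 0.891 and 0.954 in WT (PA, RO), 1.09 and 1.08 in KO. Log2 ratios used a prior count of 2. With 1 library per group no test was run. Peaks joined counts by Ensembl identifier, which the lists pair with 8733 symbols. Positions count from 1. Tnrc6c, its paralogues and the gene lists were chosen with earlier results of these data known. Named were the TNRC6, Argonaute and processing genes, per other list the 3 highest folds and 2 largest genotype ratios, and the 5 nearest profiles. Scripts were tested on simulated counts and overlaps against bedtools 2.31.1. Counts of Alkbh5 itself were not used here, so the genotype labels were not checked on them.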

Additional observations from a re-analysis of the deposited data

Results flagged for a closer look

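Of the silencing genes named by the rule, 5 had genotype ratios of opposite sign in PA and RO, with counting intervals that exclude 0 in both. The share of all genes that would meet the same criterion was not computed, so the number is only a description. The difference between the fractions was not tested in any of them, since there was 1 library per group. The log2 ratio of KO over WT in RO minus that in PA was −2.09 for Trim71 (1.77 in PA and −0.31 in RO), 0.75 for Drosha, 0.71 for Dgcr8, 0.70 for Dicer1 and 0.32 for Eif4enif1. By total counts the signs stayed opposite for Trim71, Drosha and Dgcr8, while Dicer1 had 0.10 in PA and 0.69 in RO and Eif4enif1 0.13 and 0.33. Eif4e2, outside the rule and chosen after its values were seen, had −0.51 in PA and 0.60 in RO, a difference of 1.11, with opposite signs by total counts too.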

How the results depend on the processing

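Alternatives were computed for 52 results in 152 cases, of which 126 stayed within counting error or within 1.5 times the count and 26 moved. Total counts in place of TMM factors shifted genotype log2 ratios by 0.29 in PA and 0.18 in RO. Tnrc6c then stood at log2 CPM 8.68 in WT PA, 8.55 in WT RO, 8.53 in KO PA and 8.32 in KO RO, with ratios of −0.14 and −0.23 between genotypes in PA and RO and −0.12 between fractions in WT. Tnrc6a had 0.43, 0.60 and −0.57 in the same comparisons, and Tnrc6b 0.94 and 1.11 for KO over WT. No Tnrc6 ratio changed sign. Silencing genes past 2-fold in RO numbered 1. At 10 CPM, 3318 genes in PA and 3092 in RO were past 2-fold between genotypes, and 2588 in WT and 1356 in KO between fractions. With a fold of at least 5, 3 Tnrc6c peaks remained in WT PA. A reciprocal overlap of 50% left 2 shared peaks in either direction between genotypes in RO and 1 between fractions in WT. Ranked by p-value, chosen after the data were seen, the best Tnrc6c peak was 41st in WT PA, 42nd in WT RO, 120th in KO PA and 149th in KO RO. No group has a second library, so none could be left out. Depth within single peaks was not analysed here.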
